A study of Mus musculus with 6 samples.

Results

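Retinoic acid enzymes and binding proteins were examined in whole mouse retina at embryonic day 16.5. The set held 9 genes, chosen by symbol and matched to the identifiers of the count table through the authors' deposited gene names: the retinol dehydrogenase gene Rdh10, the retinaldehyde dehydrogenase genes Aldh1a1, Aldh1a2 and Aldh1a3, the binding protein genes Crabp1 and Crabp2, and the breakdown enzyme genes Cyp26a1, Cyp26b1 and Cyp26c1. They are 9 of the 55487 genes counted, and all 9 were among the 17275 genes that passed the filter on low counts. RNA was sequenced in bulk from 6 C57BL/6 embryos of 1 litter, with both retinas of an embryo in 1 library. The 3 libraries labelled control came from animals with loxP-flanked Foxp1 alleles (Foxp1 fl/fl), and the 3 labelled Foxp1 cKO from animals with the same alleles and Six3-Cre, a Cre recombinase driven by Six3 sequence that is active in the embryonic retina. Every animal thus carried the flanked alleles, and no library tests Cre without them. Foxp1 encodes a forkhead transcription factor, and the question is which transcripts differ when it is lost from the early retina. Libraries held 23707761 to 25714620 counts. All 11 genes on the list of retinal progenitor markers were tested, with a summed level of 8515 to 8896 CPM (counts scaled to a common library total) per library.

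The direction of every difference below depends on labels that 3 measurements go against. Foxp1, the targeted gene, was at 50.8, 41.1 and 46.2 CPM in control-labelled libraries 1, 2 and 3 and at 72.4, 75.5 and 68.8 CPM in cKO-labelled libraries 1, 2 and 3, so all 3 libraries labelled cKO were higher. The gene-level count also holds reads from exons that are not deleted, and which exons are flanked is not given in the sources used here. The sex-linked genes Xist and Ddx3y followed the sex on the label for 4 libraries of 6 (not for control 2 and cKO 2). They followed the sex given for the same number in the other group in 6 of 6. Numbers 1 and 3 each have 1 sex on both group labels, so their 4 libraries match under either reading. Only control 2, labelled female, and cKO 2, labelled male, can tell the exchanged sex from the labelled sex. A DESeq2 fit with that exchanged sex as a covariate gave log2 fold changes of nearly equal size and opposite sign to the authors' deposited table of cKO against control: over the 17275 tested genes the median absolute sum of both values was 0.0012, and for the 9 retinoic acid genes it was at most 0.0013. Libraries were kept in the groups their labels give and are called labelled cKO and labelled control throughout.

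Retinoic acid is made from vitamin A in successive oxidations. RDH10 turns retinol into retinaldehyde, and the ALDH1A enzymes turn retinaldehyde into retinoic acid, which binds nuclear receptors (RARs, paired with RXRs) that sit on DNA at repeats of a short hexamer. CYP26 enzymes oxidise and so clear retinoic acid, and the CRABP proteins carry it in the cytoplasm. In the embryonic mouse eye, Aldh1a1 is known for dorsal and Aldh1a3 for ventral retina, and a band of Cyp26a1 and Cyp26c1 lies between them. Aldh1a2 is known from tissue around the eye.

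The promoters of the adjacent pair Cyp26c1 and Cyp26a1 are shown because Cyp26a1 is a known direct target of retinoic acid and separated the labelled groups, while its neighbour is transcribed far less. Each line holds the 250 bases before the RefSeq start (GRCm38.p6), at chr19:37697558-37697807 for Cyp26a1 and chr19:37685430-37685679 for Cyp26c1, both on the plus strand. Capitals mark matches on either strand to the receptor hexamers AGGTCA and AGTTCA.
Cyp26a1: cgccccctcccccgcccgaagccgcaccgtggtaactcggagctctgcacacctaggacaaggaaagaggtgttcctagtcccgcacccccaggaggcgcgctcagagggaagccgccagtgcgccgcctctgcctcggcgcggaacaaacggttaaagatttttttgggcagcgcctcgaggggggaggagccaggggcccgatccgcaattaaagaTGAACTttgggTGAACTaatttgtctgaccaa
Cyp26c1: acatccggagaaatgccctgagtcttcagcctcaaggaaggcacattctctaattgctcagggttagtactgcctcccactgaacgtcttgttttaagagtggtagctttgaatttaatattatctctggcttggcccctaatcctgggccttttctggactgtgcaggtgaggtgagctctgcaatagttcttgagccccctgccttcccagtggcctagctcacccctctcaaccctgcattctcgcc
The Cyp26a1 window held 2 copies of AGTTCA, both on the strand opposite to the gene, at -32 to -27 and -21 to -16 from the start. The pair forms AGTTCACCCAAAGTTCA, a direct repeat with a spacer of 5 bases (DR5), the arrangement known for receptors of retinoic acid. Such a DR5, searched on both strands with either hexamer in each place and so overlapping the hexamer matches, stood in 11 of 32851 promoter windows of the same length (0.0335%). AGTTCA alone stood in 11.8% and AGGTCA in 14.0% of them. Cyp26c1 had neither hexamer in its window. RefSeq entries were matched for 6 of the 9 genes, with a pair of starts for Aldh1a1, and Cyp26a1 was the 1 gene among the 6 with a DR5, or with any match to either hexamer. The forkhead core GTAAACA, in 3.17% of windows, was in none of the windows of the 6 genes. Of the genes whose windows held a DR5, 3 were tested. Besides Cyp26a1 these were Blvrb, at 0.04 on the log2 scale (edgeR adjusted p 0.939), and Gm14133, at -0.32 (edgeR adjusted p 0.653).

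No retinoic acid gene passed the test between the labelled groups. At an edgeR adjusted p of 0.05, 0 of the 9 were called, where 0.781% of all tested genes were called in either direction. limma-voom also called 0 of 9. DESeq2 called 0 of the 6 to which it gave an adjusted p, which it gave to 5887 genes in all and not to Aldh1a2, Cyp26b1 or Cyp26c1. At an unadjusted edgeR p of 0.05, 3 of the 9 lay below, against 16.5% of all tested genes. Levels were higher in the libraries labelled cKO for 7 of the 9 and lower for 2, with a median log2 fold change of 0.15, against 50.1% higher and a median of 0.00073 over all tested genes. The labelled groups did not overlap for Cyp26a1 and Crabp1, which is 2 of 9, against 20.1% of all tested genes. Without control 2 and cKO 2, the libraries that miss their labelled sex, 0 of 9 were called, where 9 of 17426 tested genes were. The libraries kept have the same labelled sex per number in each group, so this fit does not test the group labels. Log2 fold changes in it were 0.15 for Cyp26a1 (edgeR adjusted p 0.722), 0.17 for Crabp1 (edgeR adjusted p 0.714) and 0.05 for Crabp2 (edgeR adjusted p 0.903). The plot of CPM by library shows the 9 genes.

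**Figure D1:**
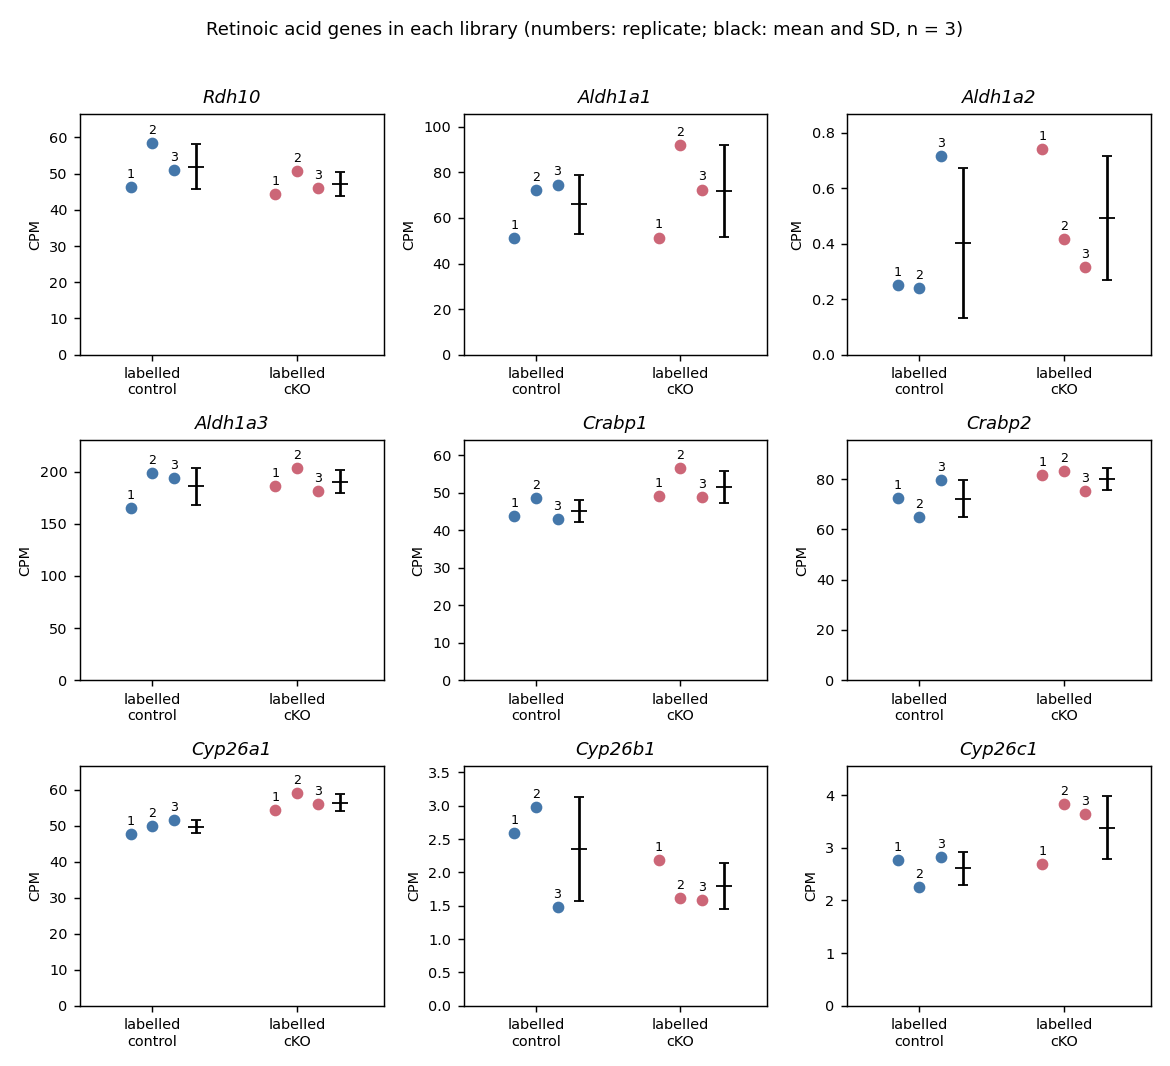
CPM (y axis, from 0) of the 9 retinoic acid genes in each library labelled control (blue) or cKO (red), with the replicate number beside each point and the mean and SD of the 3 libraries in black. The groups do not overlap for Cyp26a1 and Crabp1, and Aldh1a1 spans 51.1 to 91.9 CPM with overlapping groups.

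Per length of exon, transcripts of the binding proteins were the most abundant and those of Aldh1a2 the least. Levels in this paragraph are CPM per kilobase of summed exon, over all 6 libraries. The exons of all annotated transcripts are summed, 4937 bases over 6 transcripts for Aldh1a1 and 802 bases of 1 transcript for Crabp1. A gene transcribed mainly in a shorter form therefore reads too low, and the order and the shares below depend on this length. Crabp1 was at 60.3 ± 6.00 (SD, n = 6) and Crabp2 at 57.7 ± 5.21 (SD, n = 6), with overlapping ranges and Crabp1 the higher in 4 of 6 libraries, so their order was not beyond the spread. Aldh1a3 followed at 40.8 ± 2.95 (SD, n = 6) and Cyp26a1 at 26.8 ± 2.09 (SD, n = 6), each below the range of the gene before it in every library. Aldh1a1 at 14.0 ± 3.15 (SD, n = 6) and Rdh10 at 11.9 ± 1.3 (SD, n = 6) overlapped each other. Below these lay Cyp26c1 at 1.72 ± 0.34 (SD, n = 6), Cyp26b1 at 0.39 ± 0.12 (SD, n = 6) and Aldh1a2 at 0.20 ± 0.10 (SD, n = 6), the last 2 with overlapping ranges. Crabp1 and Crabp2 stood above 96.2% and 96.0% of the 17251 tested genes with a length, Aldh1a3 above 93.7% and Cyp26a1 above 88.9%. Aldh1a2 stood above 4.74% and Cyp26b1 above 11.5%.

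**Figure D2:**
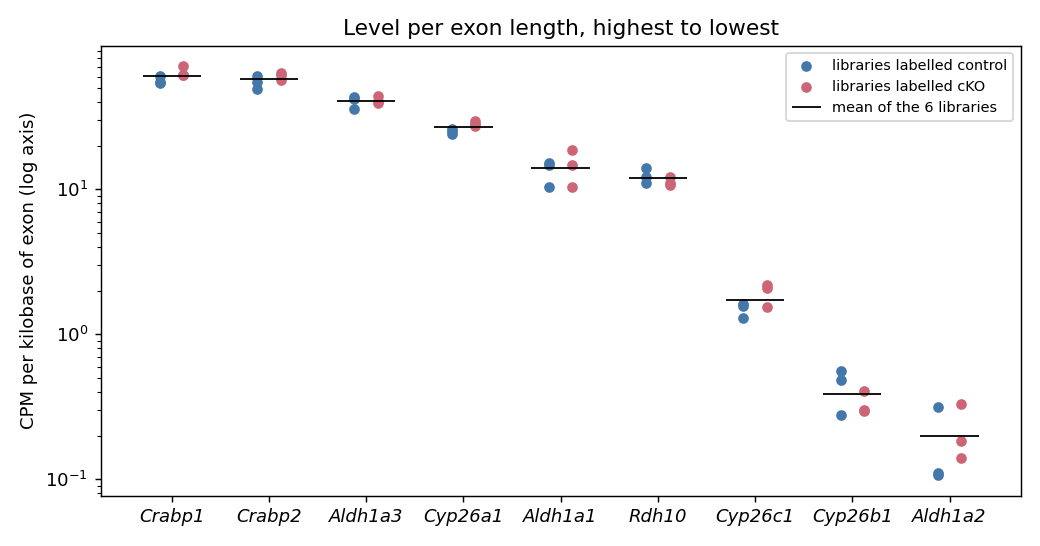
Level of each gene in CPM per kilobase of exon (log axis), with the 3 libraries labelled control in blue, the 3 labelled cKO in red and the mean of all 6 as a line, from the highest gene to the lowest. The means run from 60.3 for Crabp1 to 0.20 for Aldh1a2, and the ranges of Crabp1 and Crabp2, of Aldh1a1 and Rdh10, and of Cyp26b1 and Aldh1a2 overlap.

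Rdh10, which makes the retinaldehyde that all ALDH1A enzymes use, did not differ by the test. The gene (ENSMUSG00000025921, chromosome 1, 16105774 to 16133734, plus strand, mm10) was at 46.2, 58.5 and 51.0 CPM in control-labelled libraries 1, 2 and 3 and at 44.3, 50.8 and 46.0 CPM in cKO-labelled libraries 1, 2 and 3. The groups overlapped, with replicate 2 the highest in each. The means were 51.9 ± 6.21 and 47.1 ± 3.36 CPM (SD, n = 3 each), a log2 fold change of -0.14 (standard error 0.08, 95% interval -0.31 to 0.03, edgeR adjusted p 0.394).

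Of the synthesis enzymes, Aldh1a3 gave most of the transcripts and was close to even across libraries, while Aldh1a1 varied 1.80-fold between libraries without following the labels. Aldh1a3 (ENSMUSG00000015134, chromosome 7, 66390890 to 66427517, minus strand), the enzyme known from ventral retina, was at 165, 199 and 194 CPM in control-labelled libraries 1, 2 and 3 and at 187, 203 and 182 CPM in cKO-labelled libraries 1, 2 and 3. The groups overlapped, at 186 ± 18.0 and 191 ± 11.2 CPM (SD, n = 3 each). The log2 fold change of 0.04 (standard error 0.06, edgeR adjusted p 0.848) had a 95% interval of -0.10 to 0.17, that is 0.932-fold to 1.13-fold. Its sign turned without the library labelled control 1 (log2 fold change -0.04) and without cKO 2 (-0.01).

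Aldh1a1 (ENSMUSG00000053279, chromosome 19, 20492715 to 20643465, plus strand), known from dorsal retina and also from lens, was at 51.1, 72.2 and 74.7 CPM in control-labelled libraries 1, 2 and 3 and at 51.4, 91.9 and 72.5 CPM in cKO-labelled libraries 1, 2 and 3. The libraries labelled control 1 and cKO 1 were the lowest and nearly alike, and cKO 2 was the highest. The means of 66 ± 13.0 and 71.9 ± 20.2 CPM (SD, n = 3 each) gave a log2 fold change of 0.12 (standard error 0.29, edgeR adjusted p 0.896), whose 95% interval of -0.67 to 0.92 runs from 0.628-fold to 1.89-fold. The sign turned without the library labelled control 1 (log2 fold change -0.03) or cKO 2 (-0.09). Without cKO 1 it was 0.32 and without control 3 it was 0.22. The lens list, summed over 18 genes, was at 93.0, 410 and 1539 CPM in control-labelled libraries 1, 2 and 3 and at 92.3, 28.4 and 418 CPM in cKO-labelled libraries 1, 2 and 3. The libraries labelled control 1 and cKO 1, lowest in Aldh1a1, had low lens sums, and cKO 2, highest in Aldh1a1, had the lowest. The part of lens RNA in the Aldh1a1 values was not tested.

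Aldh1a2 (ENSMUSG00000013584, chromosome 9, 71215789 to 71296243, plus strand), known from tissue around the eye, had 6, 6 and 17 counts in control-labelled libraries 1, 2 and 3 and 19, 10 and 8 counts in cKO-labelled libraries 1, 2 and 3. The groups overlapped, and the highest library of each group stood above the rest of its group. At 0.40 ± 0.27 and 0.49 ± 0.22 CPM (SD, n = 3 each) the log2 fold change was 0.29 (standard error 0.50, edgeR adjusted p 0.836), turned to -0.13 without the library labelled cKO 1 and rose to 0.99 without control 3, so no difference was detectable at this depth. The summed level of 12 genes of the mesenchyme around the eye was 70.3 to 125 CPM in the libraries labelled control and 103 to 178 CPM in those labelled cKO. In a gene-level count of bulk tissue, fewer cells of a type and less RNA per cell cannot be told apart.

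Within the synthesis enzymes, the share of summed CPM per kilobase was 70.1% to 79.0% for Aldh1a3, 20.3% to 29.6% for Aldh1a1 and 0.185% to 0.641% for Aldh1a2 across the 6 libraries. The ratio of Aldh1a3 to Aldh1a1 was 3.46, 2.94 and 2.78 in control-labelled libraries 1, 2 and 3 and 3.88, 2.37 and 2.68 in cKO-labelled libraries 1, 2 and 3. The lowest and the highest ratio were both in the group labelled cKO. Genes of dorsal retina (Tbx2, Tbx3, Tbx5, Bmp4, Efnb1 and Efnb2) had log2 fold changes below 0 for 6 of 6 with a median of -0.04, and none passed; Tbx2 was at -0.04 and Efnb2 at -0.01. Genes of ventral retina were higher for 3 and lower for 3, none passed, and Ephb2 was at -0.13. Vax2, a ventral homeobox gene, had a log2 fold change of 0.26 (standard error 0.07, edgeR adjusted p 0.0785), with all libraries labelled cKO above the controls. Ephb3 lay the other way at -0.15 (standard error 0.05, edgeR adjusted p 0.0964), with all libraries labelled cKO below the controls.

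**Figure D3:**
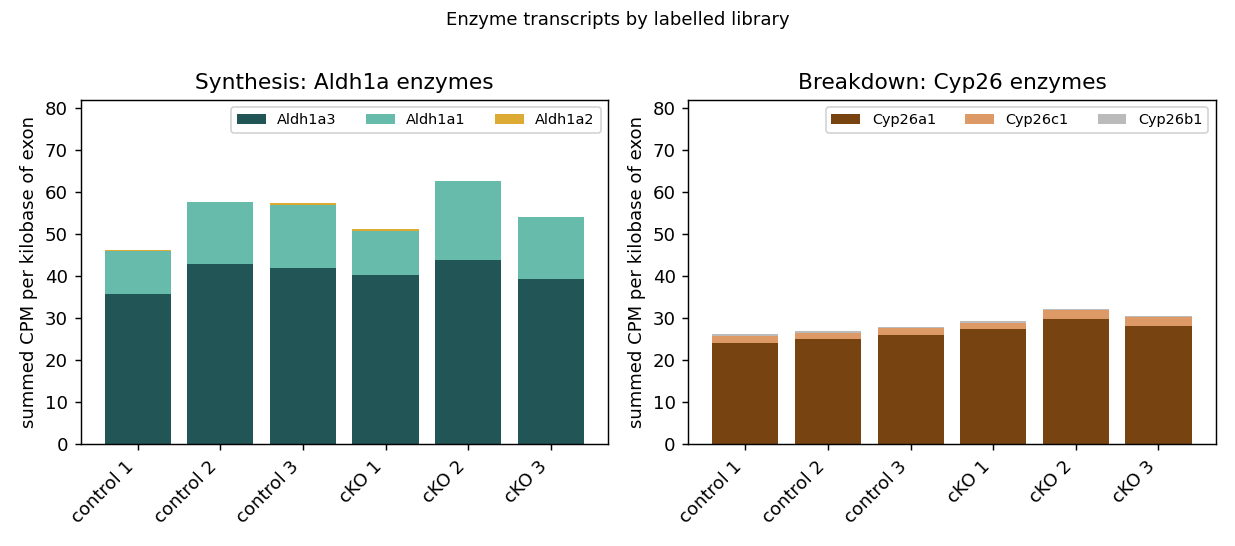
Summed CPM per kilobase of exon (y axis, from 0, same scale in each panel) of the Aldh1a synthesis enzymes (left) and the Cyp26 breakdown enzymes (right) in each library by its label. Aldh1a3 and Cyp26a1 make up most of each bar, the Aldh1a sums overlap between labelled groups, and the Cyp26 sums run from 26.2 to 27.9 in the libraries labelled control and from 29.4 to 32.3 in those labelled cKO.

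Among the breakdown enzymes, Cyp26a1 was higher in every library labelled cKO than in any labelled control, by a small margin that missed the threshold over all genes. Cyp26a1 (ENSMUSG00000024987, chromosome 19, 37697798 to 37701536, plus strand), whose promoter with the DR5 is printed above, was at 47.9, 49.9 and 51.6 CPM in control-labelled libraries 1, 2 and 3 and at 54.4, 59.1 and 56.0 CPM in cKO-labelled libraries 1, 2 and 3. The gap between the highest control and the lowest cKO library was smaller than the range within either group. The means were 49.8 ± 1.87 and 56.5 ± 2.40 CPM (SD, n = 3 each), a 1.13-fold difference with a log2 fold change of 0.18 (standard error 0.05, 95% interval 0.07 to 0.30, edgeR adjusted p 0.0946). Groups not overlapping with the libraries labelled cKO above were found for 10.8% of all tested genes, and with those labelled cKO below for 9.3%. With the exon length trend of each library removed the log2 fold change was 0.12 (edgeR adjusted p 0.333). With the replicate number as a block the edgeR adjusted p was 0.0298. That fit called 1065 of 17275 tested genes, against 135 without the block, and the numbers are not known to pair animals.

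Cyp26c1 (ENSMUSG00000062432, chromosome 19, 37685581 to 37693398, plus strand) ends 4399 bases before Cyp26a1 begins, with 0 annotated genes between them. It was at 2.76, 2.26 and 2.82 CPM in control-labelled libraries 1, 2 and 3 and at 2.7, 3.83 and 3.63 CPM in cKO-labelled libraries 1, 2 and 3. The libraries labelled cKO 2 and 3 were the highest and cKO 1 fell within the control range. The log2 fold change was 0.37 (standard error 0.19, 95% interval -0.02 to 0.77, edgeR adjusted p 0.333). Cyp26a1 exceeded Cyp26c1 by 13.6 to 19.5 times per kilobase across the 6 libraries, with overlapping groups, and gave 92.1% to 93.3% of the summed Cyp26 level.

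Cyp26b1 (ENSMUSG00000063415, chromosome 6, 84571414 to 84593908, minus strand) lay the other way, at 2.59, 2.98 and 1.48 CPM in control-labelled libraries 1, 2 and 3 and at 2.19, 1.62 and 1.58 CPM in cKO-labelled libraries 1, 2 and 3. The lowest library of all was labelled control 3, so the groups overlapped. The log2 fold change was -0.39 (standard error 0.25, 95% interval -0.91 to 0.14, edgeR adjusted p 0.483), and it ranged from -0.63 without control 3 to -0.18 without control 2. Without both control 2 and cKO 2 it was -0.11, and that of Cyp26c1 was 0.18. The 13 genes on the pigment epithelium list summed to 90.01 to 145 CPM under control labels and 56.9 to 141 CPM under cKO labels. Pmel, the most abundant of them, had means of 46.7 (control label) and 33.3 CPM (cKO label), and Trpm1 had 15.8 and 12.6 CPM. Rpe65, on the same list, had 0 counts in 4 libraries, and 2 and 1 in the libraries labelled cKO 2 and 3. The part of pigment epithelium RNA in the values of Cyp26b1 was not tested. Set against each other, the summed Aldh1a level was 1.77, 2.14 and 2.06 times the summed Cyp26 level in control-labelled libraries 1, 2 and 3 and 1.74, 1.95 and 1.77 times in cKO-labelled libraries 1, 2 and 3, with overlapping groups.

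The binding protein genes were each slightly higher in the libraries labelled cKO, and neither passed. Crabp1 (ENSMUSG00000032291, chromosome 9, 54764748 to 54773110, plus strand) was at 43.9, 48.6 and 43.1 CPM in control-labelled libraries 1, 2 and 3 and at 49.2, 56.5 and 49.0 CPM in cKO-labelled libraries 1, 2 and 3. All 3 libraries labelled cKO were above the controls, cKO 1 and 3 by a narrow margin over control 2. The means of 45.2 ± 2.99 and 51.6 ± 4.30 CPM (SD, n = 3 each) gave a log2 fold change of 0.19 (standard error 0.07, 95% interval 0.05 to 0.33, edgeR adjusted p 0.141). With the replicate number as a block, which is not known to pair animals, the edgeR adjusted p of Crabp1 was 0.0284. That fit called 1065 of 17275 tested genes.

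Crabp2 (ENSMUSG00000004885, chromosome 3, 87948666 to 87953376, plus strand) was at 72.3, 64.9 and 79.6 CPM in control-labelled libraries 1, 2 and 3 and at 81.9, 83.3 and 75.3 CPM in cKO-labelled libraries 1, 2 and 3. Control 3 lay above cKO 3, so the groups overlapped. The log2 fold change was 0.15 (standard error 0.07, 95% interval 0.01 to 0.29, edgeR adjusted p 0.263). Without the library labelled control 3 it was 0.23 (edgeR adjusted p 0.0350), and without cKO 2 it was 0.12 (edgeR adjusted p 0.632). The binding protein genes and the Cyp26a1 and Cyp26c1 genes have short exon totals, of 802 bases for Crabp1, 1322 for Crabp2, 1983 for Cyp26a1 and 1747 for Cyp26c1, where the median tested gene has 3922. Other tested genes within a length ratio of 5 to 4 of these had median log2 fold changes of 0.06, 0.09, 0.06 and 0.07 in the same order. With the length trend removed the log2 fold changes of Crabp1 and Crabp2 were 0.11 (edgeR adjusted p 0.501) and 0.07 (edgeR adjusted p 0.680).

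For the 4 genes whose highest library was at least 1.5 times the lowest, the tested genes with the nearest pattern were sought, as the smallest root mean square difference of centred log2 CPM over the 6 libraries. For Aldh1a1 these were Rsl1, Gm42946 and Gm7143, at differences of 0.08, 0.08 and 0.08. For Cyp26c1 they were A330094K24Rik (0.04), Tmem119 (0.05) and Gm24091 (0.06). For Cyp26b1 they were Rbm47 (0.11), Slc12a8 (0.11) and BC051142 (0.12), and for Aldh1a2 they were Slc38a8 (0.11), Gm19967 (0.17) and Gm33732 (0.20). All 12 had low levels, of 6.53 CPM or less in every library, and the likeness is a description over 6 libraries among 17275 genes.

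Around these genes, Fabp5 passed the test and no receptor did. Of 28 other genes of retinoid uptake, storage, oxidation, binding and reception, 22 were tested, 7 lay above 0 and 15 below on the log2 scale, with a median log2 fold change of -0.09. The test called 1 as higher and 0 as lower, where it called 0.295% of all tested genes as higher and 0.486% as lower. Fabp5, a fatty acid binding protein that also carries retinoic acid, was at 141, 147 and 148 CPM in control-labelled libraries 1, 2 and 3 and at 164, 178 and 170 CPM in cKO-labelled libraries 1, 2 and 3. Each library labelled cKO was above each control. Its log2 fold change was 0.23 (standard error 0.05, edgeR adjusted p 0.0329).

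The call of Fabp5 was lost when any of 4 single libraries was left out. Its edgeR adjusted p was 0.106 without control 1, 0.118 without control 2, 0.302 without cKO 2 and 0.108 without cKO 3, with log2 fold changes of 0.21, 0.24, 0.20 and 0.24. With the length trend removed the edgeR adjusted p of Fabp5 was 0.0534 (log2 fold change 0.21). The adjusted p was 0.110 by edgeR without robust estimation and 0.105 by limma-voom, both at a log2 fold change of 0.23, and 0.0021 by DESeq2. Without control 2 and cKO 2, the libraries that miss their labelled sex, it was 0.714, and the log2 fold change was 0.21.

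**Figure D4:**
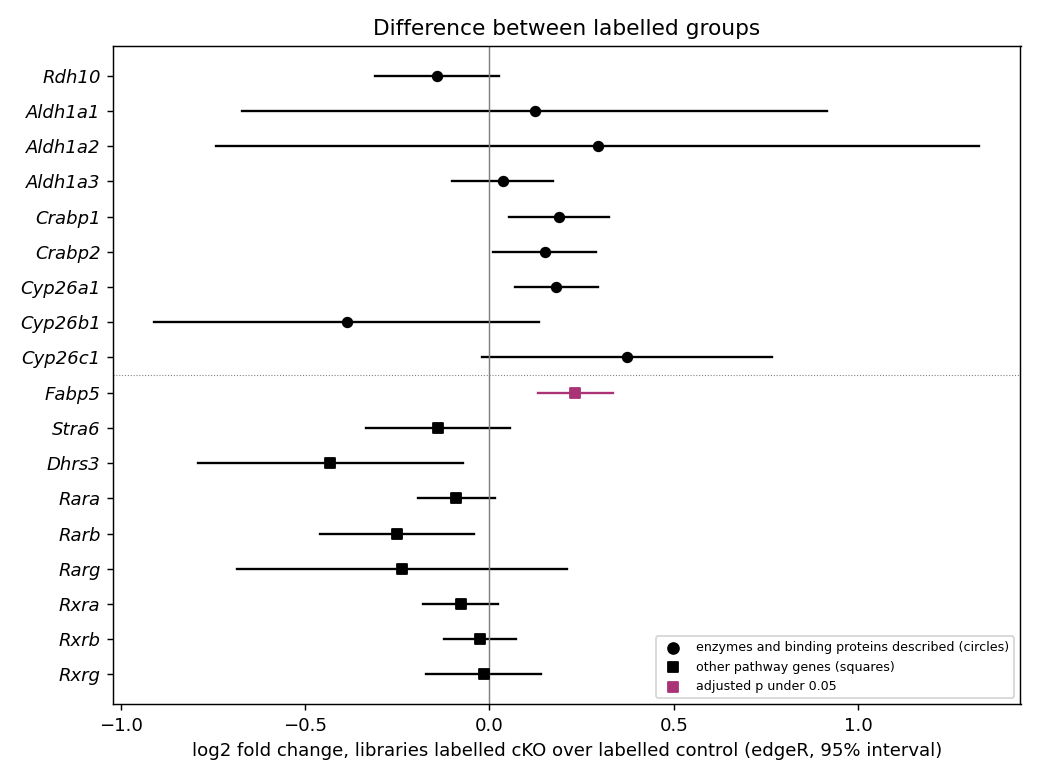
Log2 fold change of libraries labelled cKO over libraries labelled control (x axis, edgeR) with its 95% interval, for the 9 retinoic acid genes (circles) and for Fabp5, Stra6, Dhrs3 and the receptors (squares), with a gene past an adjusted p of 0.05 in purple. Fabp5 at 0.23 passes, and the intervals of Aldh1a1 and Aldh1a2 are the widest.

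The RAR and RXR genes lay below 0 on the log2 scale and none passed. Rara was at 124 ± 4.99 CPM in the libraries labelled control and 117 ± 7.37 CPM in those labelled cKO (SD, n = 3 each), and the log2 fold change was -0.09 (edgeR adjusted p 0.390). Rarb, which retinoic acid is known to induce, was at 13.6, 16.4 and 17.5 CPM in control-labelled libraries 1, 2 and 3 and at 12.6, 12.4 and 14.8 CPM in cKO-labelled libraries 1, 2 and 3, and the log2 fold change was -0.25 (edgeR adjusted p 0.210). Its groups overlapped through the library labelled control 1. Rarg was at -0.24, Rxra at -0.08, Rxrb at -0.03 and Rxrg at -0.02 in log2 fold change, with adjusted p by edgeR from 0.462 to 0.951. Stra6, the membrane receptor for retinol uptake, lay at -0.14 on the log2 scale (edgeR adjusted p 0.50). Dhrs3, which reduces retinaldehyde back to retinol, was at 3.68, 4.96 and 4.30 CPM in control-labelled libraries 1, 2 and 3 and at 3.21, 2.66 and 3.71 CPM in cKO-labelled libraries 1, 2 and 3, with a log2 fold change of -0.43 (standard error 0.17, edgeR adjusted p 0.207). Cyp26a1, Rarb, Stra6 and Dhrs3, all known to be induced by retinoic acid, lay on both sides of 0. Of 13 genes on a list of such induced genes, which also holds Cyp26a1 and Crabp2, 8 were tested, 3 lay above 0 and 5 below, with a median log2 fold change of -0.10 and Nrip1, a nuclear receptor co-repressor, at -0.13. None of the 8 passed by edgeR. An unadjusted p under 0.05 was found for 5 of the 8, against 16.5% of all tested genes, with Cyp26a1 and Crabp2 above 0 and Rarb, Dhrs3 and Nrip1 below.

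Of the marker genes of other cells, 2 passed by edgeR, both on the amacrine and horizontal list. The part of such cells in the values above was not tested. The summed levels of lens, pigment epithelium and mesenchyme markers overlapped between the labelled groups, as did those of red blood cells (73.4 to 145 against 110 to 178 CPM), ganglion cells (1872 to 1956 against 1900 to 2074 CPM) and the ciliary margin (255 to 276 against 260.0 to 278 CPM). Sums that did not overlap were those of the endothelial, microglia and amacrine and horizontal lists, each lower in the libraries labelled cKO. Taken singly, groups did not overlap for 2 of 5 tested endothelial, 0 of 7 microglia and 6 of 12 amacrine and horizontal genes. Over all tested genes that share was 20.1%, 9.3% with the libraries labelled cKO below. How often sums over other lists of genes separate was not tested. The endothelial sum was 334 to 358 against 302 to 310 CPM, and Kdr, at means of 322 and 286 CPM, made up most of it. On the same list Pecam1 was at means of 0.59 and 0.62 CPM and Cdh5 at 0.48 and 0.55 CPM, both slightly higher in the libraries labelled cKO. The sum is thus a reading of Kdr, and whether Kdr stood for endothelial cells here was not tested. Microglia were at 22.8 to 27.5 against 20.5 to 21.5 CPM, and amacrine and horizontal cells at 697 to 737 against 622 to 646 CPM. In the last list 2 of 12 tested genes passed by edgeR, Tfap2b (log2 fold change -0.25, edgeR adjusted p 0.0329) and Prox1 (-0.24, edgeR adjusted p 0.0172). No other gene on the 12 lists of cell and position markers passed in that fit, which called 0.781% of all tested genes. The edgeR adjusted p of Tfap2b rose to 0.0756 without control 1, 0.172 without control 2, 0.272 without cKO 2 and 0.118 without cKO 3, and that of Prox1 to 0.112 without control 2, 0.201 without cKO 2 and 0.0990 without cKO 3. The log2 fold changes in these fits lay from -0.25 to -0.20 for Tfap2b and from -0.24 to -0.21 for Prox1. For Tfap2b and Prox1 in turn, the adjusted p was 0.107 and 0.0974 by limma-voom, 0.121 and 0.0600 by edgeR without robust estimation, 0.0532 and 0.0542 by edgeR with the length trend removed, and 0.714 for each by edgeR without both control 2 and cKO 2. The most abundant markers with no edgeR call are given as log2 fold changes. Those of lens lay at -1.95 for Cryaa (standard error 1.44) and -1.83 for Crybb1 (standard error 1.46). Those of pigment epithelium lay at -0.48 for Pmel and -0.33 for Trpm1. Those of mesenchyme lay at 0.86 for Col1a1 and 0.64 for Col1a2, both called in the authors' deposited table, as given below. Of the 10 mesenchyme genes tested 4 lay above 0 and 6 below, with a median of -0.03, and Pdgfra at -0.43 and Pdgfrb at -0.18 were below the controls in all 3 libraries labelled cKO. Of the 5 endothelial genes tested 2 lay above 0, Pecam1 at 0.08 and Cdh5 at 0.20, and 3 below, Kdr at -0.17, Cldn5 at -0.20 and Egfl7 at -0.14. The same value was -0.35 for Csf1r and -0.30 for Cx3cr1 (microglia), and 0.54 for Hbb-bs and 0.37 for Hba-a1 (red blood cells). It was 0.12 for Gap43 and 0.08 for Nefl (ganglion cells), 0.03 for Zic2 and 0.02 for Zic1 (ciliary margin), and -0.01 for Ccnd1 and 0.09 for Fgf15 (progenitors). Of the 11 progenitor genes 6 were higher and 5 lower, and none passed.

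The authors' deposited table gives all 9 retinoic acid genes the opposite sign. Cyp26a1 in the authors' deposited table is at a log2 fold change of -0.19 for cKO against control (adjusted p 0.104), Crabp1 at -0.18 (adjusted p 0.208), Crabp2 at -0.12 (adjusted p 0.373) and Rdh10 at 0.11 (adjusted p 0.532). The authors' deposited table lists 6 of the 9 with an adjusted p, of which 0 are under 0.05, and gives Fabp5 at -0.24 (adjusted p 0.0031). It also calls markers that edgeR did not call here. Among them are Col1a1 at -1.32 (adjusted p 3.5e-06) and Col1a2 at -0.84 (adjusted p 1.3e-07), and Kdr at 0.17 (adjusted p 0.0258) and Ephb2 at 0.18 (adjusted p 0.0163). Foxp1, the targeted gene, is at -0.60 in the authors' deposited table (adjusted p 6.0e-11). Under the labels kept here its log2 fold change was 0.65 (edgeR adjusted p 4.6e-05). The retinoic acid genes themselves cannot tell which labels are right.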

How the data were processed

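The submitters' processing notes name the mm10 build, DESeq2 1.32.0, featureCounts 1.5.1, STAR 2.7.6a and cutadapt 2.8. Per the labels' protocols, ribosomal RNA was depleted and the kit was directional. How strand was handled in counting was not stated by any label. The authors deposited raw counts, as whole numbers for each gene. The authors' deposited comparison table holds, per the file headers, log2 fold changes and their errors, the mean normalized signal, a test score, and the p-value before and after adjustment. Columns were matched to samples by the descriptions in the labels. Names came from the authors' deposited table, then GENCODE M21 (55227 of 55487 genes matched), which also gave positions and summed exon lengths. The annotated genes that overlap Aldh1a1 and Aldh1a2 share 0 exon bases with them.

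Counts were tested with edgeR 4.0.16 (R 4.3.3): filterByExpr, TMM, robust quasi-likelihood fits with genotype alone, and Benjamini-Hochberg adjustment over 17275 genes at 0.05. The biological coefficient of variation was 8.37%. Standard errors were the log2 fold change over the root of F, and intervals are at 95%. CPM use TMM-scaled library sizes. Replicates are separate animals per the labels, and chi-square over degrees of freedom between libraries of 1 group ran from 7.39 to 12.5, above sampling noise, so none was a duplicate. The scripts were tested on simulated counts. Alternatives used RLE and upper quartile scaling, other filters, DESeq2 1.42.0, limma-voom (limma 3.58.1), covariates, a block, exon length offsets (lowess span 0.3) and left-out libraries. The exchanged sex covariate was chosen after seeing the data.

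The genes and lists were chosen with earlier results of these data known. Named were the 9 genes, Foxp1, called genes and set members of the retinoid list, up to 4 called genes per direction of other lists (the 2 most abundant where none was called), and the 3 nearest patterns where the highest library was at least 1.5 times the lowest (log2 CPM with a prior count of 2). Blvrb, Gm14133, Xist, Ddx3y, Rpe65, Ephb3, Pdgfra, Pdgfrb, Pecam1, Cdh5, Egfl7 and the dorsal genes other than Tbx2 and Efnb2 were named beside that rule, after their values were seen. Promoter sequences are from RefSeq. A gene of the retinoid lists is not reported here and was left out of their counts.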

Additional observations from a re-analysis of the deposited data

How the results depend on the processing

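Against 135 genes called by edgeR over the whole table, there were 83 with a filter at 1 CPM, 742 with no filter, 10 without robust estimation, 38 with the exon length trend removed, 566 by DESeq2 and 13 by limma-voom. There were 9 calls without control 2 and cKO 2 together, and 746 by edgeR and 725 by DESeq2 with the exchanged sexes as a covariate. Leaving out 1 library at a time gave 19 calls (without cKO 2) to 778 (without control 3).

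Of the 9 retinoic acid genes, leaving out 1 library gave 0 to 1 calls, and the 1 was Crabp2. The replicate numbers are not known to pair animals: same-numbered libraries had correlations of deviations of 0.09, -0.05 and 0.20, and not every library correlated best with its own number. With the replicate block there were 1065 calls, 2 of them retinoic acid genes, Cyp26a1 and Crabp1. The log2 fold change of Aldh1a1 turned to -0.057 with labelled sex as a covariate and to -0.0198 without control 2 and cKO 2, and ran from -0.0912 to 0.32 without 1 library. That of Aldh1a2 ran from -0.13 to 0.99 and that of Aldh1a3 from -0.0413 to 0.0865. The other 6 genes kept their direction under all 19 alternatives. Aldh1a2 was not tested with the filter at 1 CPM, and its 6 to 19 counts limit what can be seen. The cause of each shift was not tested.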
